A study of Mus musculus with 8 samples.

Results

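The mitochondrial ribosomal protein genes were taken as every gene in the deposited expression table whose symbol starts with Mrpl or Mrps followed by a digit. The pattern found 80 of 34465 genes in the table. Of these, 76 were genes and 4 were pseudogenes (Mrpl23-ps1, Mrpl48-ps, Mrps36-ps1 and Mrps36-ps2), which can share reads with their parent genes and were kept apart. The 76 genes comprised 49 of the large subunit, 26 of the small subunit and Mrps36, whose protein is now counted with the 2-oxoglutarate dehydrogenase complex rather than with the ribosome. The Mrps18a and Mrps30 proteins sit in the large subunit in spite of their symbols, and both genes were counted there. The 76 genes lie on 17 chromosomes, with at most 10 on any of them.

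RNA was sequenced from whole mouse liver in 8 libraries, 2 in each of 4 groups. All mice carried a floxed b-PDGFR gene on both alleles (b-PDGFR fl/fl) on a 129S4/SvJae/FVB background and were 3 months old. Cre-negative mice lacked Cre, and Cre-positive mice also carried GFAP-Cre, a glial promoter that in liver is used to delete the receptor in hepatic stellate cells, a minor cell type of the organ. Livers of each genotype were taken either after a sham operation or 72 hours after partial hepatectomy. Nothing in the labels ties each library to an animal of its own, so p-values measure only the spread between these libraries, which may be technical. In whole tissue, fewer cells of a type and less RNA per cell cannot be told apart.

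Mitochondria translate the 13 proteins encoded in their own genome with a dedicated ribosome. Its RNAs come from mitochondrial DNA, whereas every protein is encoded in the nucleus, made in the cytosol and imported. The small subunit binds the mRNA and reads codons, and the large subunit joins amino acids and releases the chain at the inner membrane, where most products enter the respiratory chain. Some proteins descend from bacterial ribosomal proteins and others were gained in mitochondria. Hepatocytes are rich in mitochondria, and after partial hepatectomy they re-enter the cell cycle and divide.

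The libraries differed in ways that bear on all values below. Deposited values are normalized signals, and the sources used here give neither their exact unit nor the read depth. They summed to between 8617660 and 11583800 per library. In Cre-positive hepatectomy replicate 2 the 10 highest genes took 30.0% of the signal, against 14.3% to 18.4% in the other libraries. In that library the deviation from the sham mean followed transcript GC content (Spearman's rho 0.559 over all tested genes with a GC value), whereas rho lay between -0.102 and 0.212 in the other 7 libraries. Exact zeros affect such totals: 27 genes were at 0 in a library and above 1000 in another, 15 of them Mup genes and none a mitochondrial ribosomal protein gene. Albumin (Alb) is listed at 0 in 7 of 8 libraries and transferrin (Trf) at 0 in Cre-positive hepatectomy replicate 1 alone. Without Alb and Trf, left out after their values were seen, 9 hepatocyte markers summed to 552300 in that replicate, inside the sham range of 534800 to 622100, and to 276500, 397400 and 379100 in the other hepatectomy libraries. Of 6 cholangiocyte markers only Spp1 stood out there (1714, against 371 to 549 elsewhere), and the other 5 summed to 37.3, inside the sham range of 28.1 to 87.1. The part of these features in the results was not tested, and each result that changes without these libraries is given with and without them. All 10 cell division genes examined were called higher after hepatectomy in the contrast averaged over genotypes (limma, median log2 difference 4.71), and their summed value was 66.5 to 108 in sham and 1332 to 3542 in hepatectomy libraries. Pdgfrb, the targeted gene, measured 49.8 and 63.3 (Cre-negative) or 59.4 and 46.0 (Cre-positive) in sham livers, and 123 and 70.5 (Cre-negative) or 63.1 and 99.9 (Cre-positive) after hepatectomy. The Cre-positive and Cre-negative ranges of Pdgfrb overlapped, so these whole-liver values do not show the deletion; the value covers the whole gene and not the floxed part alone.

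Before the values, promoter sequences are shown because mitochondrial ribosomal protein genes are classical targets of a few nuclear regulators. Windows from 250 bases before to 50 bases after the transcript start came from RefSeq (mouse build GRCm38.p6), and 67 of the 76 genes had at least 1. Mrpl13, Mrpl15, Mrpl19, Mrpl38, Mrpl4, Mrpl54, Mrps28, Mrps34 and Mrps35 had none. Each window was searched on both strands for CCGGAAG, the core bound by ETS factors such as GABP, also named NRF2, GCGCATGC for NRF1, AAGATGG for YY1 and CACGTG, the E-box bound by Myc. Matches on opposite strands may overlap (a stretch reading GCGCATGCGC counts as an NRF1 match on each), and the E-box reads the same on both strands and was counted once. The 5 stretches below run from position -140 to 29, with the first transcribed base as position 0, and capitals mark the matches. Mrpl52 and Mrpl17 were above every sham library in every hepatectomy library, Mrps12 carries its ETS match just after the start, and Mrpl39 and Mrps22 were among the 8 genes with the lowest averaged differences.
Mrpl52, chr14:54426769-54426938, plus strand: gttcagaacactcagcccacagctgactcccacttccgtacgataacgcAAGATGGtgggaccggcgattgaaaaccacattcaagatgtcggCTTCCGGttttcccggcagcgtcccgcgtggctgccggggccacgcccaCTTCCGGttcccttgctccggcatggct
Mrpl17, chr7:105811058-105811227, minus strand: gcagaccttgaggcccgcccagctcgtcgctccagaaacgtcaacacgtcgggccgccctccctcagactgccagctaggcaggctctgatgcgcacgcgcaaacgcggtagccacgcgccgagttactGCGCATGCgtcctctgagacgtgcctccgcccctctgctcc
Mrps12, chr7:28741792-28741961, minus strand: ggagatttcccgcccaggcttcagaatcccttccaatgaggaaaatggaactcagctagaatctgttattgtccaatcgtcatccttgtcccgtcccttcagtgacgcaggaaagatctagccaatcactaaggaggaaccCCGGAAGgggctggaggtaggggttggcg
Mrpl39, chr16:84735215-84735384, minus strand: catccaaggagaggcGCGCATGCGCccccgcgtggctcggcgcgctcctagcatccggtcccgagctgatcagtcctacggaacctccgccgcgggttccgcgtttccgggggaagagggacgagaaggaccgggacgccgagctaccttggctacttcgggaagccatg
Mrps22, chr9:98601650-98601819, minus strand: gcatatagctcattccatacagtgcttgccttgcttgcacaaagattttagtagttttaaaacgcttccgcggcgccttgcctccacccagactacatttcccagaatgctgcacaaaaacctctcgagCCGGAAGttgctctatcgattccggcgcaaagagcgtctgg

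The Mrpl52 stretch holds an ETS match on the minus strand at -47 and again at 2, with a YY1 match at -91. Mrpl17 has an NRF1 match at -11 and, before the stretch shown, an ETS match at -237. Mrpl39 has a pair of overlapping NRF1 matches at -125 and -123. Mrps12 has an ETS match at 1 and, before the stretch shown, a YY1 match at -198. Mrps22 has an ETS match at -11. Among the 67 genes, 24 had an ETS match (35.8%, against 9.93% of all genes with a window and 17.6% of the genes tested here). A YY1 match was found in 13 (19.4%, against 7.28% and 7.82%) and an NRF1 match in 8 (11.9%, against 3.05% and 5.43%). An E-box was found in 5 (7.46%, against 8.09% and 11.3%). Both an ETS and an NRF1 match occurred in 4 of them (5.97%, against 0.618% of all genes), and 29 had no match to any of the 4 motifs. Median GC content was 58.3% in their windows and 59.7% in those of tested genes. A match describes letters in the window and is neither a bound site nor a cause, and a window without one says nothing of the factor.

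All 76 genes were detected in every library, with values from 24.3 (Mrpl47) upward, and all passed the filter of a mean value of at least 1 that 16443 genes passed. Tests compared log2(value + 1) with limma, and a gene was called at a Benjamini-Hochberg adjusted p below 0.05 over all 16443 genes. Differences between groups are given on that log2 scale with their standard error. Values are compared between libraries and never between genes, since it is not known whether they are scaled by length.

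In sham livers the mitochondrial ribosomal protein genes were nearly flat. Their summed signal was 21438 and 21891 without Cre and 21711 and 22344 with it. The median ratio between the 2 libraries of a group was 1.10 without Cre and 1.08 with it, and no gene differed by over 2-fold within either group. Between the genotypes none of the 76 genes was called (limma, lowest adjusted p 1), beside 0.00608% of all genes tested, and 0 had an unadjusted p below 0.05, beside 0.888% of all genes. The median Cre-positive minus Cre-negative difference was 0.01 over the 76 genes, with 41 positive, and -0.03 over all genes, with 43.3% positive. The median over the 76 genes became -0.05 without Cre-positive sham replicate 2.

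No sham difference between the genotypes exceeded its standard error in any of the 76 genes. Mrps6, a small-subunit protein with a bacterial homologue, measured 78.1 and 78.0 in Cre-negative against 61.5 and 62.4 in Cre-positive sham, a difference of -0.33 (SE 0.37). Its libraries did not overlap between the genotypes, and limma gave an adjusted p of 1. Both Cre-positive sham libraries lay below both Cre-negative ones in 11 of the 76 genes (14.5%, against 19.4% of all genes). They lay above in 10 (13.2%, against 12.1%). Mrps12 (-0.27), Mrps31 (-0.18) and Mrps22 (-0.18) were the next on the negative side. On the positive side stood Mrps11 (0.33), Mrpl38 (0.27), Mrpl20 (0.25) and Mrpl21 (0.19). The value of Mrpl38 rested on 1 library, since Cre-positive sham measured 1027 and 688, and without replicate 1 the difference was -0.02. Mrps31 likewise turned to 0.01 without Cre-positive sham replicate 1.

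In Cre-negative livers 72 hours after hepatectomy most mitochondrial ribosomal protein genes had higher values than in sham livers. Their summed signal was 30827 and 27799. Of the 76 genes 58 had a positive difference and the median was 0.42, beside 61.0% positive and a median of 0.21 over all genes. No gene was called (limma, lowest adjusted p 0.105), while 1.11% of all genes were. At an unadjusted p below 0.05 stood 20 of the 76, 18 higher and 2 lower, beside 21.3% of all genes. Both Cre-negative hepatectomy libraries lay above all 4 sham libraries in 48 of the 76 genes (63.2%, against 34.6% of all genes) and below them in 5 (6.58%, against 18.4%). The 5 were Mrpl1, Mrpl39, Mrps22, Mrps31 and Mrps5. With median-of-ratios scaling, which brought the median of all genes in this contrast to 0.00, the median over the 76 genes was 0.19 and 47 were positive.

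**Figure D1:**
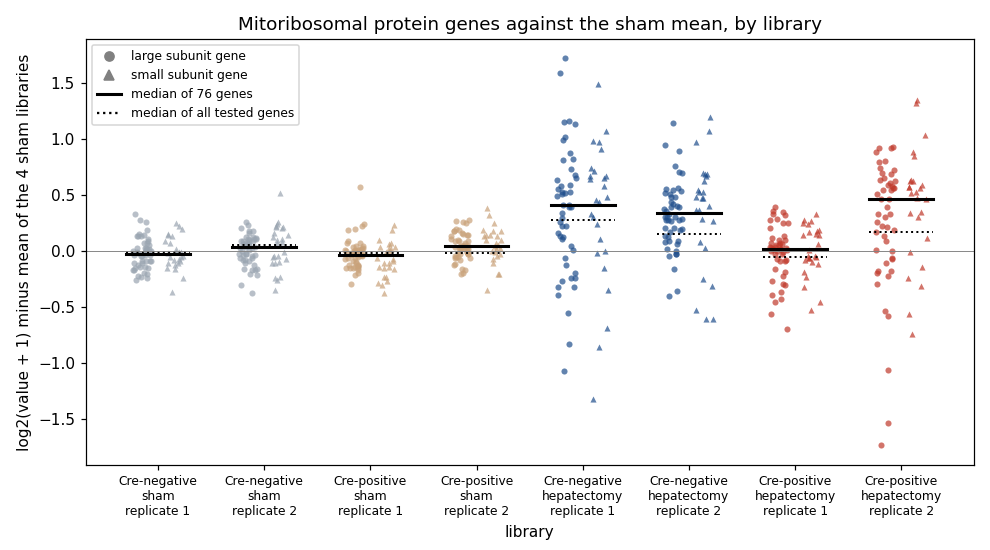
Each point is 1 mitochondrial ribosomal protein gene in 1 library, as log2(value + 1) minus the mean of the 4 sham libraries (vertical axis), for the 8 libraries (horizontal axis); circles are large-subunit and triangles small-subunit genes, the solid bar is the median of all 76 genes and the dotted bar that of all 16443 tested genes. The medians were 0.41 and 0.34 (Cre-negative) and 0.02 and 0.46 (Cre-positive) after hepatectomy, and between -0.04 and 0.04 in sham livers.

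The number of calls changed when either Cre-positive hepatectomy library was left out. The spread of that pair enters the error shared by all groups, and its part in the absence of calls was not tested. Without Cre-positive hepatectomy replicate 1, 11 of the 76 genes were called in the Cre-negative comparison, beside 10.1% of all genes, and the same 11 were called without replicate 2, beside 9.96%. All 11 were higher. They were Mrpl11, Mrpl13, Mrpl23, Mrpl27, Mrpl28, Mrpl52, Mrpl54, Mrps11, Mrps21, Mrps25 and Mrps34, with adjusted p between 0.0215 and 0.0464 in the first of these fits. The differences themselves do not change there, since no Cre-negative library was left out, and the lone Cre-positive hepatectomy library is assumed to vary like the other groups. A fit of the 4 Cre-negative libraries alone called 0 of the 76. The share of all genes called in that fit is not given here, so this count is not a result about the 76.

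Mrps25, a mitochondrial-specific protein of the small subunit, had the highest Cre-negative difference. Its sham values were 29.6 and 30.9 (Cre-negative) and 32.3 and 34.1 (Cre-positive). After hepatectomy Mrps25 measured 91.0 and 67.8 without Cre, then 37.8 and 59.4 with it. Every hepatectomy library was above every sham library, with the lowest of the 4 in Cre-positive replicate 1. The difference was 1.35 (SE 0.33, limma adjusted p 0.105) in Cre-negative livers and 0.92 (SE 0.23, adjusted p 0.0777) averaged over the genotypes. An exon of Mrps25 overlaps one of Nr2c2 on the other strand, and Nr2c2 itself had a negative averaged difference of -0.76. With medians of GC classes taken out of each library, Mrps25 passed the threshold in both contrasts (Cre-negative difference 1.23, adjusted p 0.0496, and averaged difference 0.80, adjusted p 0.0392). Over all alternatives, those without 1 library included, its adjusted p ran from 0.032 to 0.49 in the Cre-negative and from 0.01 to 0.282 in the averaged contrast.

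Mrpl54, a mitochondrial-specific protein of the large subunit, also had every hepatectomy library above every sham library. It measured 224, 239, 221 and 231 in the 4 sham libraries, and after hepatectomy 689 and 426 (Cre-negative) or 291 and 433 (Cre-positive). The Cre-negative difference was 1.22 (SE 0.31, adjusted p 0.11 by limma) and the averaged difference 0.94 (SE 0.22, adjusted p 0.0632). Mrpl52, also of the large subunit, had the lowest adjusted p of the 76 genes in the averaged contrast, 0.0611. Its 4 sham values were 984, 1097, 1040 and 1007. Hepatectomy values were 2044 and 1747 without Cre, then 1295 and 1598 with it, so that all 4 were above the highest sham library, for an averaged difference of 0.68 (SE 0.16).

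Mrpl28, the counterpart of bacterial L28, measured 443, 426, 437 and 459 in sham livers. After hepatectomy Mrpl28 measured 981 and 848 without Cre but 453 and 843 with it, where replicate 1 lay within the sham range. The Cre-negative difference was 1.07 (SE 0.31) and the averaged one 0.77 (SE 0.22). Mrpl23, whose bacterial counterpart lines the mouth of the exit tunnel, measured 112, 102, 124 and 110 in sham livers, then 247 and 247 (Cre-negative) and 91.0 and 186 (Cre-positive) after hepatectomy. The last pair lay on either side of the sham values. The pseudogene Mrpl23-ps1 was likewise above its sham values in every hepatectomy library but Cre-positive replicate 1 (19.3, 19.2, 19.2 and 19.8 in sham, then 44.1, 40.1, 16.7 and 31.1). Whether the 2 share reads was not tested, and the Mrpl23 values are uncertain.

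**Figure D2:**
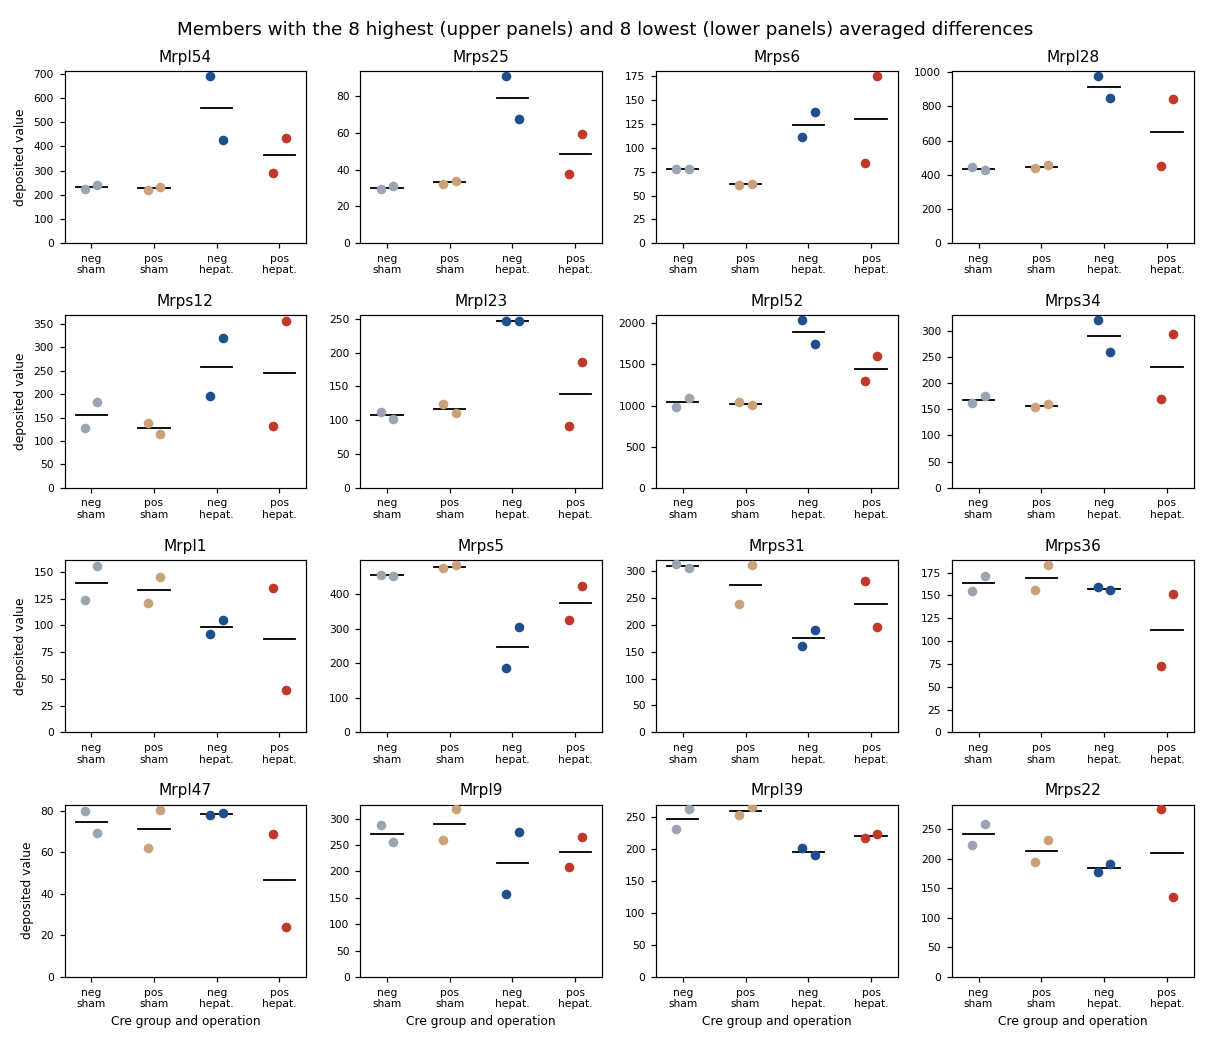
Deposited values (vertical axes, from 0, arbitrary normalized units) of the 8 genes with the highest and the 8 with the lowest averaged hepatectomy minus sham difference, by group on the horizontal axes (neg, Cre-negative; pos, Cre-positive; hepat., hepatectomy); points are the 2 libraries of a group, replicate 1 at left, and bars their mean. Mrpl54, Mrps25, Mrps6 and Mrpl52 in the upper panels have all 4 hepatectomy libraries above all sham libraries, and Mrps5 and Mrpl39 in the lower panels have all 4 below.

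Averaged over genotypes, 62 of the 76 genes had a positive hepatectomy difference and the median was 0.25, beside 57.7% and 0.12 over all genes. None was called, beside 4.49% of all genes, and 16 had an unadjusted p below 0.05, 14 of them higher, beside 23.8% of all genes. All 4 hepatectomy libraries lay above all 4 sham libraries in 11 genes (14.5%, against 11.2% of all genes), namely Mrpl16, Mrpl17, Mrpl27, Mrpl49, Mrpl52, Mrpl54, Mrps15, Mrps17, Mrps25, Mrps28 and Mrps6. They lay below in Mrpl39 and Mrps5 (2.63%, against 6.2%). With median-of-ratios scaling, which brought the median of all genes to -0.03, 49 of the 76 genes were positive and their median was 0.09. Without Cre-positive hepatectomy replicate 1 the averaged contrast called 34 of the 76 genes, 30 higher and 4 lower (Mrpl1, Mrpl47, Mrps22 and Mrps31), beside 32.7% of all genes. Of the 34, 18 were large-subunit and 16 small-subunit genes. Without replicate 2 it called only Mrpl52, beside 6.16% of all genes.

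Some of the next genes in the averaged contrast differed in which library was high. Mrps6 measured 111 and 137 (Cre-negative) and 84.4 and 175 (Cre-positive) after hepatectomy, against 61.5 to 78.1 in sham, for an averaged difference of 0.81 (SE 0.26). An exon of Mrps6 overlaps one of the transporter gene Slc5a3 on the same strand, which was at 0.519 to 2.74 in the 8 libraries. Mrps34, needed for a stable small subunit, measured 154 to 175 in sham and 321, 259, 170 and 293 after hepatectomy, with the Cre-positive replicate 1 value inside the sham range. It overlaps Nme3 on the same strand and Mapk8ip3 on the opposite strand, and the averaged differences of those genes were 0.29 and 0.73. Mapk8ip3 measured 760 and 233 (Cre-negative) and 215 and 245 (Cre-positive) after hepatectomy. Whether reads are shared was not tested. Of the 76 genes 23 have an exon that overlaps an exon of another protein-coding gene in GENCODE vM21. Among those described here they also include Mrpl9, Mrpl13, Mrpl18, Mrpl19, Mrpl21, Mrpl27, Mrpl44, Mrpl47, Mrpl49, Mrpl53, Mrps7, Mrps11 and Mrps30. The sources used here do not give whether reads were counted by strand.

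A few genes had lower values after hepatectomy. Mrps5, at the mRNA entry of the small subunit, measured 456, 453, 475 and 484 in sham livers and 187, 305, 325 and 423 after hepatectomy, in the order Cre-negative replicates 1 and 2, then Cre-positive 1 and 2. Every hepatectomy library was below every sham library. The averaged difference was -0.65 (SE 0.21, limma adjusted p 0.127), and it passed the threshold only with GC class medians taken out (-0.89, adjusted p 0.0417); over all alternatives the adjusted p ran up to 0.357. Mrpl39, the other gene below sham in all 4 hepatectomy libraries, measured 232 to 267 in sham and 202, 191, 217 and 224 after hepatectomy, a difference of -0.28 (SE 0.15). Mrps31 measured 313, 305, 238 and 311 in sham and 160, 190, 280 and 196 after hepatectomy, with only Cre-positive replicate 1 inside the sham range.

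The other low values came from 1 library in some genes and from several in others. Mrpl1, the counterpart of the protein of the bacterial L1 stalk, had the lowest averaged difference, -0.66 (SE 0.37). It measured 121 to 155 in sham, and after hepatectomy 91.9 and 105 (Cre-negative) or 135 and 39.9 (Cre-positive). Without Cre-positive replicate 2 the difference was -0.23. Mrpl47 measured 61.8 to 80.1 in sham livers, and after hepatectomy 77.8 and 79.0 (Cre-negative) or 68.7 and 24.3 (Cre-positive). Its averaged difference of -0.35 turned to 0.02 without Cre-positive replicate 2, the library that followed GC content. Mrps22 (-0.25) turned to 0.02 without the same library. After hepatectomy Mrps22 measured 177 and 190 (Cre-negative) or 284 and 134 (Cre-positive), against 194 to 258 in sham. Mrps36 measured 155 to 183 in sham and 73.2 in Cre-positive hepatectomy replicate 1 alone, with 152 to 159 in the other 3 hepatectomy libraries, and it may share reads with its 2 pseudogenes. Mrpl9 (-0.34) measured 255 to 319 in sham and 157, 275, 208 and 266 after hepatectomy.

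**Figure D3:**
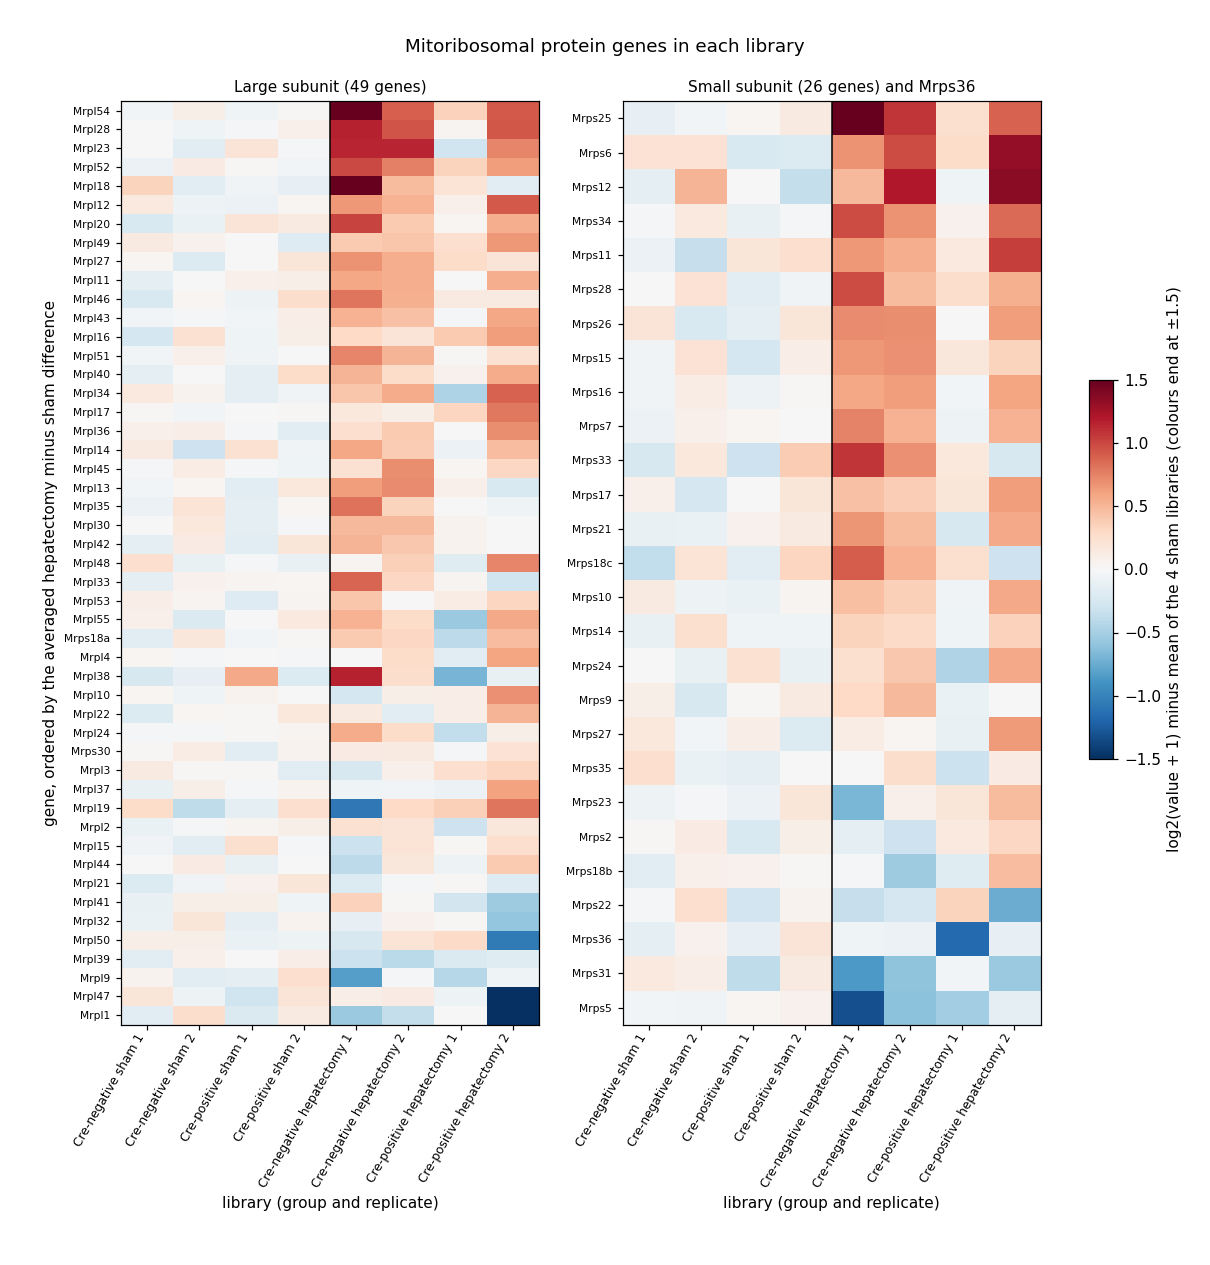
Heat map of all 76 mitochondrial ribosomal protein genes (rows, ordered by the averaged hepatectomy minus sham difference) in the 8 libraries (columns); colour is log2(value + 1) minus the mean of the 4 sham libraries, with colours ending at plus or minus 1.5, and the vertical line separates sham from hepatectomy. Cre-negative hepatectomy libraries are mostly red, Cre-positive replicate 1 is pale, and Cre-positive replicate 2 is red for most genes and dark blue for Mrpl1 and Mrpl47.

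By subunit, 41 of 49 large-subunit genes and 21 of 26 small-subunit genes had a positive averaged difference, with medians of 0.24 and 0.35. In Cre-negative livers the medians were 0.34 and 0.52. Genes with a bacterial homologue (47 genes, 39 positive) had a median averaged difference of 0.30, and the 28 specific to mitochondria (23 positive) one of 0.22. Within the small subunit the 17 genes with a bacterial homologue had a Cre-negative median of 0.58 and the 9 specific to mitochondria one of 0.08. Within the large subunit the order was the opposite, with Cre-negative medians of 0.30 and 0.43. In Cre-positive livers the same classes had medians of 0.28 and 0.29 in the small subunit and of 0.14 and 0.20 in the large. No test was made between these classes.

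Genes of the large-subunit stalk, where translation factors dock, were Mrpl10, Mrpl11 and Mrpl12. Mrpl12 measured 598 to 676 in sham and 985, 900, 662 and 1192 after hepatectomy, with an averaged difference of 0.54 (SE 0.21, adjusted p 0.188). Mrpl11 had 274 to 310 in sham and 443, 435, 296 and 433 after hepatectomy, a difference of 0.42 (SE 0.18). Mrpl10 had 302 to 320 in sham and 259, 331, 334 and 503 after hepatectomy, a difference of 0.15 (SE 0.19) that turned to -0.01 with median-of-ratios scaling and to -0.09 with GC class medians taken out. Replicate 2 of Cre-positive hepatectomy was the highest of the 8 libraries for Mrpl10 and Mrpl12.

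Mrpl2, Mrpl3 and Mrpl4, chosen by role from the core of the large subunit, had averaged differences of 0.07 to 0.18. Mrpl2 measured 620 to 681 in sham and 762, 743, 527 and 731 after hepatectomy, a difference of 0.07 (SE 0.16) that was -0.09 with median-of-ratios scaling and -0.31 with GC class medians taken out. Mrpl3 had a difference of 0.10 (SE 0.16; -0.05 with median-of-ratios scaling) and Mrpl4 one of 0.18 (SE 0.21; -0.20 with GC class medians taken out). Mrpl45, which ties the ribosome to the inner membrane, measured 215 to 235 in sham and 260, 361, 226 and 275 after hepatectomy, a difference of 0.31 (SE 0.18). Mrpl44, which resembles ribonuclease III, had a difference of 0.02 (SE 0.21), negative under median-of-ratios scaling (-0.13), quantile normalization (-0.06) and removal of GC class medians (-0.10). Mrps30, a large-subunit protein in spite of its symbol, had 105 to 121 in sham and 112 to 133 after hepatectomy, a difference of 0.11 (SE 0.17; -0.05 with median-of-ratios scaling).

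In the small subunit, Mrps12 of the decoding centre measured 129, 182, 138 and 116 in sham and 195, 321, 133 and 356 after hepatectomy. Its 2 replicates differed widely in both hepatectomy groups, and the averaged difference of 0.74 had an SE of 0.35. That difference was 0.39 without Cre-positive hepatectomy replicate 2 and 1.095 without replicate 1. Mrps7 of the head measured 270 to 293 in sham and 473, 406, 267 and 405 after hepatectomy (difference 0.43, SE 0.19), and Mrps16 measured 258 to 284 in sham and 401, 414, 261 and 405 after it (0.44, SE 0.19). In both genes Cre-positive replicate 1 alone was at or just below the sham range. The 3 paralogues of bacterial S18 differed in the order of their libraries. Mrps18c had 309 to 442 in sham and 704, 538, 443 and 302 after hepatectomy (0.34, SE 0.22), Mrps18b 525 to 595 and then 562, 395, 502 and 790 (-0.07, SE 0.21), and the large-subunit Mrps18a 327 to 388 and then 467, 439, 270 and 488 (0.19, SE 0.22; -0.10 with GC class medians taken out). Their hepatectomy ranges overlapped the sham ranges in each case.

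In Cre-positive livers the 2 hepatectomy libraries disagreed. Their summed signal was 21514 and 28028, the former inside the sham range, and the median ratio between them over the 76 genes was 1.42, with 11 genes apart by over 2-fold, against 1.16 and 2 genes in Cre-negative hepatectomy. Replicate 1 lay above all 4 sham libraries in 20 genes and below in 21, where 29.2% and 34.5% of all genes did so. Replicate 2 lay above in 52 (68.4%, against 46.6% of all genes) and below in 16 (21.1%, against 33.5%). The group difference was positive in 54 genes with a median of 0.18, beside 51.6% and 0.02 over all genes. None was called (limma, lowest adjusted p 0.326), beside 0.943% of all genes, and 1 had an unadjusted p below 0.05, beside 13.5% of all genes. The median was 0.43 without replicate 1 and 0.02 without replicate 2. Without replicate 1 the contrast called 13 of the 76 genes, 10 higher and 3 lower (Mrpl1, Mrpl47 and Mrpl50), beside 21.0% of all genes, and that value then rests on replicate 2 alone.

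GC content varied with the deviations from sham in the hepatectomy libraries. Transcripts of the 76 genes had a GC content of 40.6% to 60.8% with a median of 51.4%, beside a median of 50.6% over all tested genes. Spearman's rho between GC content and deviation, across the 76 genes, was 0.381 and 0.326 in the Cre-negative pair, -0.157 in Cre-positive replicate 1 and 0.529 in Cre-positive replicate 2. In the sham libraries it ran from -0.291 to 0.369. In Cre-positive replicate 2 the 4 genes under 44% GC had a median deviation of -0.82, the 18 between 44% and 48% one of -0.04, the 21 between 48% and 52% one of 0.51, and the 33 at 52% or more one of 0.56. All tested genes in the same classes had medians of -1.25, -0.37, 0.18 and 0.60. Genes are not independent replicates, and these values describe libraries only.

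**Figure D4:**
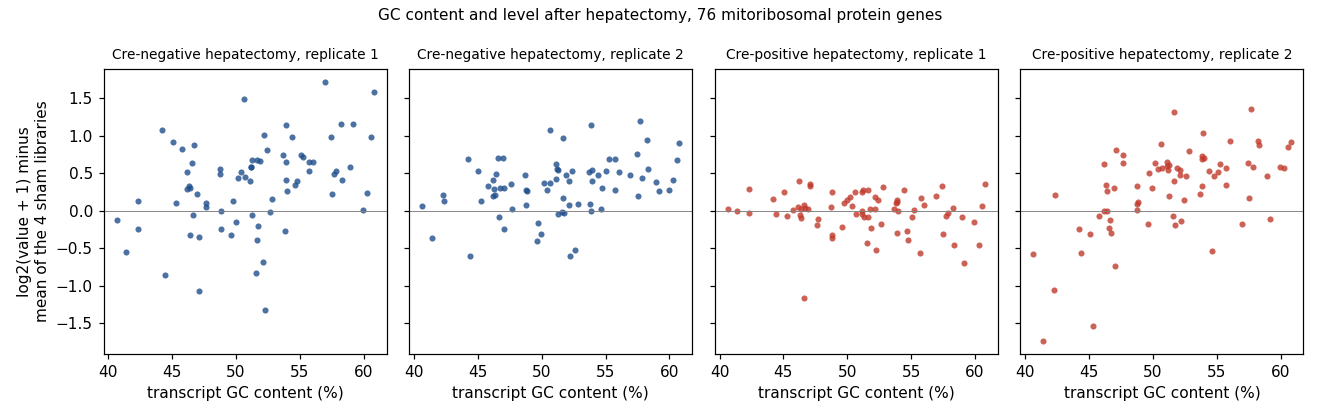
Transcript GC content in percent (horizontal axis) against log2(value + 1) minus the mean of the 4 sham libraries (vertical axis) for the 76 mitochondrial ribosomal protein genes (points) in each of the 4 hepatectomy libraries (panels). Spearman's rho across genes was 0.381, 0.326, -0.157 and 0.529 from left to right. In Cre-positive replicate 2 the 4 genes under 44% GC had a median of -0.82, although Mrps30 among them was at 0.21.

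Between the genotypes after hepatectomy, 51 of the 76 genes were lower and 25 higher in Cre-positive livers, with a median difference of -0.28. Over all genes 37.0% were higher and the median was -0.23. None was called (limma, lowest adjusted p 0.178), beside 0.0182% of all genes, and 7 had an unadjusted p below 0.05, all lower, beside 18.3% of all genes at that level. Both Cre-positive libraries lay below both Cre-negative ones in 26 genes (34.2%, against 26.3% of all genes) and above in 10 (13.2%, against 14.2%). The median was -0.01 without Cre-positive replicate 1 and -0.45 without replicate 2. Median-of-ratios scaling brought it to -0.11, with all genes at -0.08. Markers of Kupffer cells, the resident macrophages of the liver, differed in this contrast: 8 of 8 were higher in Cre-positive livers (median 0.83, 0 called, 5 at an unadjusted p below 0.05), and they summed to 4060 and 4265 against 2340 and 1708, with 1505 to 2464 in sham. Markers of other cell types differed as well, with 0 called. Higher were 5 of 6 sinusoidal endothelium (median 0.44) and 7 of 11 hepatocyte markers (0.22). Lower were 5 of 6 stellate cell (-0.27) and 4 of 5 tested cholangiocyte markers (-1.08). The part of these cell types in the result was not tested. Without replicate 1 this contrast called 4 genes, Mrpl1, Mrpl13 and Mrpl47 lower and Mrpl17 higher, beside 13.0% of all genes.

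Mrpl38 had the most negative genotype difference after hepatectomy, with 1709 and 920 in Cre-negative against 472 and 709 in Cre-positive libraries (-1.12, SE 0.37, limma adjusted p 0.21). The Cre-negative replicates were far apart, and Cre-positive replicate 1 was below all 4 sham libraries, which measured 676 to 1027. Mrpl18 measured 1375 and 581 against 479 and 369 (-1.09, SE 0.41), and here too the first Cre-negative library stood alone. In Mrps33 the pairs were 286 and 219 against 151 and 114 (-0.93, SE 0.31), and Mrpl23 followed with -0.92 (SE 0.35). Mrpl19 had the most positive difference, 0.97 (SE 0.48), from 32.2 and 85.4 without Cre against 88.8 and 121 with it. Mrps23 (0.63), Mrps5 (0.63) and Mrpl10 (0.48) followed.

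The difference of the hepatectomy response between the genotypes was tested directly and no gene of the 76 was called (limma, lowest adjusted p 0.591), beside 0.0122% of all genes, and 2 had an unadjusted p below 0.05, beside 8.09% of all genes. In Mrps2 and Mrps9 (2.63% of the 76, against 6.85% of all genes) the hepatectomy libraries of the 2 genotypes lay without overlap on opposite sides of their own sham libraries. The median was -0.25, with 50 genes negative and 26 positive, beside -0.20 and 39.7% positive over all genes. The median over the 76 genes became 0.04 without Cre-positive hepatectomy replicate 1. With median-of-ratios scaling it was -0.11, beside -0.07 over all genes. Mrpl38 had -1.39 (95% confidence interval -2.63 to -0.14), Mrpl23 -1.05 (-2.22 to 0.12), Mrps33 -0.98 (-2.0 to 0.03) and Mrpl18 -0.96 (-2.31 to 0.39). On the other side were Mrpl19 with 0.89 (-0.70 to 2.47), Mrps31 with 0.61 (-0.31 to 1.53), Mrps23 with 0.57 (-0.42 to 1.56) and Mrps2 with 0.56 (-0.25 to 1.37). The intervals are not adjusted for the number of genes.

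The rest of the mitochondrial translation apparatus was described from lists of 7 further subunits, 11 translation factors, 21 assembly and rRNA-modifying factors and 6 genes of mitochondrial transcription and mRNA stability. None of these genes was called in any of the 6 contrasts. The further subunits resembled the 76 genes in sign, with 6 of 7 positive in the averaged contrast and a median of 0.29. Dap3, a GTP-binding subunit of the small subunit, measured 769 to 884 in sham and 948, 1100, 804 and 1155 after hepatectomy. Ptcd3, an RNA-binding small-subunit protein, measured 647 to 759 in sham and 608, 637, 819 and 199 after it. Assembly factors had 13 of 21 positive and a median of 0.15.

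Translation factors had 5 of 11 positive in the averaged contrast and a median of -0.17. Gfm1, the elongation factor that moves the ribosome along the mRNA, measured 910 to 979 in sham livers, and after hepatectomy 226 and 448 (Cre-negative) or 852 and 833 (Cre-positive). All 4 hepatectomy values were below the sham range, and the Cre-negative difference was -1.62 (limma adjusted p 0.0662). Tufm, which brings aminoacyl-tRNA to the ribosome, measured 607 to 729 in sham and 802, 759, 690 and 954 after hepatectomy. Of the transcription and stability genes 2 of 6 were positive, with a median of -0.48. Lrpprc, which stabilizes mitochondrial mRNAs, measured 2449 to 2865 in sham and 1037, 1344, 2452 and 777 after hepatectomy, with an averaged difference of -1.06 and an adjusted p of 0.133. Tfam, which packages mitochondrial DNA and starts its transcription, measured 336 to 364 in sham and 137, 305, 437 and 228 after hepatectomy.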

How the data were processed

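The 8 libraries of whole-liver RNA were deposited by the authors as 1 table of gene values and 1 of isoform values; the deposited values are normalized signals that are not whole numbers, with a normalization not given in the sources used here. TopHat, Cufflinks, mm9 and NCBIM37 are named, without versions, per the submitters' processing notes. The tests were planned for FPKM-like values, and the same log-scale test was kept for the signal unit. The values do not resolve into whole reads, so read depth is unknown and no counting interval is given.

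Log2(value + 1) was compared in R 4.3.3 with limma 3.58.1 over 16443 genes with a mean of at least 1. A single model of the 4 group means gave 6 contrasts, with an intensity trend in the variance prior (4 residual and 3.245 prior degrees of freedom) and Benjamini-Hochberg adjustment over all genes tested. P-values and confidence intervals (95%) come from limma. The fit was tested on simulated data. GC content came from GENCODE vM21 transcripts (96.56% of tested genes had a value). Genes named in the text were those with the largest differences in each contrast (8 in each direction for the averaged contrast, 4 for the others) and a list chosen by role; 4 in each direction within each genotype were added after the values were seen. The members, lists and tests were chosen with earlier results of these data known. Alternatives were other pseudocounts, filters, scalings and variance settings, removal of GC class medians, and leaving out each library. Removal of GC class medians together with Cre-positive hepatectomy replicate 2 was added after seeing the data.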

Additional observations from a re-analysis of the deposited data

Results flagged for a closer look

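In 2 genes both hepatectomy libraries of each genotype lay on 1 side of their own sham libraries, and on opposite sides in the 2 genotypes. That is 2.63% of the 76 genes, against 6.85% of all genes tested. Mrps2, of the small subunit, measured 118 and 125 in Cre-negative sham livers and 105 and 93.7 after hepatectomy, a difference of -0.28. With GFAP-Cre it measured 103 and 123 in sham livers and 129 and 145 after hepatectomy, a difference of 0.28. The difference between the responses was 0.5634 (limma adjusted p 0.701). Mrps9, a small-subunit protein with a bacterial homologue, measured 337 and 284 in Cre-negative sham livers and 397 and 450 after hepatectomy, a difference of 0.45. With GFAP-Cre the sham values were 326 and 345 and the hepatectomy values 301 and 321, a difference of -0.11. The difference between the responses was -0.5589 (limma adjusted p 0.679). Neither passed the threshold of the test of the difference.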

How the results depend on the processing

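No paired analysis was possible because the sample titles number the libraries from 1 to 8 and share no number between groups. Of the values given for 40 genes in 71 gene-by-contrast combinations, 8 changed sign in at least 1 of the 10 settings other than leaving out 1 library, and 11 in at least 1 of the 8 settings that leave one out. The cause of these changes was not tested. Median-of-ratios scaling, which moved the median of all genes in the Cre-negative hepatectomy contrast from 0.21 to 0.00, gave a median over the 76 genes of 0.19 there and of -0.11 between genotypes after hepatectomy. Removing GC class medians gave a median of 0.14 with 1 gene called (Mrps25) in the Cre-negative contrast. In the averaged contrast 2 genes were called (Mrps5, Mrps25), and the median between genotypes after hepatectomy was -0.055. The share of all genes called in that setting is not given here, so these counts are not a result about the 76. Removing them without Cre-positive hepatectomy replicate 2 was a setting added after seeing the data. It gave a median of 0.15 in the Cre-negative contrast and of 0.013 in the Cre-positive one.

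In the averaged contrast, median-of-ratios scaling reversed Mrpl10 (-0.0083), Mrpl3 (-0.055), Mrpl2 (-0.090), Mrpl44 (-0.13) and Mrps30 (-0.046), and quantile normalization reversed Mrpl44 (-0.057). Removal of GC class medians reversed Mrpl10 (-0.094), Mrpl4 (-0.20), Mrpl2 (-0.31), Mrpl44 (-0.10) and Mrps18a (-0.10). Without Cre-positive hepatectomy replicate 2 as well, it reversed these 5 (-0.11, -0.20, -0.24, -0.14 and -0.15 in the same order) and Mrpl47 (0.0069).

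Leaving out 1 library at a time, the number of genes called ranged from 0 to 11 in Cre-negative, 0 to 13 in Cre-positive and 0 to 34 in averaged hepatectomy contrasts, and from 0 to 4 between genotypes after hepatectomy. It was 0 throughout between sham groups and for the difference of the responses. Every call arose without 1 of the Cre-positive hepatectomy libraries. The median ranged from 0.33 to 0.42 in Cre-negative, 0.018 to 0.43 in Cre-positive and 0.16 to 0.36 in averaged hepatectomy contrasts. Between genotypes it ranged from -0.054 to 0.020 in sham and from -0.45 to -0.0068 after hepatectomy, and for the difference of the responses from -0.42 to 0.040. Genes that changed sign were Mrpl1 in Cre-positive livers (-1.71 to 0.030), Mrps31 (-0.37 to 0.012) and Mrpl38 (-0.017 to 0.56) between sham groups, and in the averaged contrast Mrpl47 (-0.71 to 0.019), Mrps22 (-0.52 to 0.015), Mrpl4 (-0.0071 to 0.37), Mrpl2 (-0.049 to 0.19), Mrpl44 (-0.12 to 0.16), Mrps2 (-0.064 to 0.058), Mrps18a (-0.021 to 0.41) and Mrps18b (-0.23 to 0.10). With 2 libraries a group and an unknown read depth, small differences were not detectable.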

Other observations

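The RNAs of the mitochondrial ribosome, encoded in mitochondrial DNA, varied widely between libraries. The ribosomal RNA mt-Rnr1 measured 590, 617, 617 and 1257 in sham, 3004 and 782 in Cre-negative hepatectomy, and 503 and 253 in Cre-positive hepatectomy livers. The other, mt-Rnr2, measured 645, 837, 593 and 1218 in sham and 2615, 656, 426 and 163 after hepatectomy in the same order. The highest and the lowest value of both came from hepatectomy libraries, and the sources used here do not give how mitochondrial reads were treated. Of the 13 mitochondrially encoded protein genes, mt-Co1, mt-Co3, mt-Atp6 and mt-Atp8 are listed at exactly 0 in replicate 1 of both hepatectomy groups and in Cre-positive sham replicate 2. In the other 5 libraries their values lay between 7090 (mt-Atp6) and 153000 (mt-Atp8), and some recur exactly, such as 62014 for mt-Co1 in 3 sham libraries. No level or difference is therefore given for the mitochondrially encoded proteins. Neither ribosomal RNA was called by limma in any contrast.

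Isoform values were available for all 76 genes, 59 of which had over 1 isoform. The share of the main isoform was above every sham library in all 4 hepatectomy libraries for Mrps7 (69.4% to 72.2% in sham, 72.4% to 81.2% after hepatectomy) and Mrps14 (76.9% to 81.0%, then 81.7% to 84.1%). It was below in Mrps35 (74.2% to 82.1%, then 65.7% to 73.2%), Mrpl39 (96.9% to 98.1%, then 95.6% to 96.8%) and Mrpl53 (99.4% to 99.8%, then 99.1% to 99.4%). These are 3.39% and 5.08% of the 59 genes, beside 2.41% and 2.62% of 10946 genes with over 1 isoform. These genes were named after their values were seen.

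The 24 genes with an ETS match in the promoter window had a median averaged difference of 0.34 (21 positive) and the 43 without one 0.24 (32 positive). For the 8 with an NRF1 match the median was 0.04 (4 positive), against 0.33 in the 59 without one (49 positive). The 13 with a YY1 match had a median of 0.27 (12 positive), against 0.25 in the 54 without one (41 positive). With an E-box the median was 0.34 (5 genes, 5 positive), against 0.25 in the 62 without one (48 positive). No test was made of these differences.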
